A study of Mus musculus with 4 samples.

Results

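The interferon-stimulated genes examined here are 36 mouse genes, listed by symbol, that belong to the response of cells to type I interferon or to the receptors and factors that set it off. A gene was read from the probe sets annotated with exactly 1 gene symbol, and where a gene had several, the brightest on average stood for it. By this rule 34 of the 36 genes were measured, among 19938 genes in all. Isg15 was left out because its probe set was shared with the predicted gene Gm9706, and Ifi44 because no probe set was named for it. The cells were leukemia stem cells of a mouse model of chronic myeloid leukemia. The Hif1a-/- group came from marrow of Hif1a-/- donors and the WT group from marrow of C57BL/6 donors that kept Hif1a. This gene encodes the part of the transcription factor HIF-1 that oxygen regulates. Donors of both groups had been given 5-fluorouracil, their marrow had been infected with a retrovirus for BCR-ABL and green fluorescent protein, and it had been transplanted into C57BL/6 (B6) recipients, so cells of both groups carried the oncogene. Marrow was taken 14 days after transplantation and sorted for GFP+Lin-c-Kit+Sca-1+ cells, and the age given for all samples is 8 weeks. Each of 2 Hif1a-/- and 2 WT samples was hybridised to its own Affymetrix whole-transcript array. Whether the biological replicates were separate animals or pools is not stated in the labels, so a p-value reflects only how far these samples differ from each other, which may be technical. Nor do they say which part of Hif1a was deleted or in which cells.

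Type I interferons are secreted proteins that bind a receptor made of Ifnar1 and Ifnar2. The kinases Jak1 and Tyk2 on this receptor phosphorylate STAT proteins, among them Stat2, which joins Irf9 in the complex ISGF3. ISGF3 binds the interferon-stimulated response element, a repeat of GAAA, in the promoters of many genes, whose products sense viral nucleic acids, block viral replication, or raise and limit the response itself. In blood-forming stem cells interferon drives entry into the cell cycle, and Sca-1, a marker used in this sort and encoded by Ly6a, is itself induced by interferon in mice.

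Values are log2 expression from RMA, a method that corrects background, sets all arrays to the same distribution and summarises the probes of a set. A difference of 1 on this scale is a 2-fold difference. Over all genes the median value was 8.55 and 8.57 on Hif1a-/- replicates 1 and 2 and 8.54 and 8.53 on WT replicates 1 and 2. The WT arrays stood apart from each other. Across genes, which are not independent replicates, the correlation was 0.9945 between the Hif1a-/- arrays and 0.9806 between the WT arrays, which was lower than any of the 4 correlations between genotypes (0.9882 to 0.9925). Hif1a itself read 11.25 and 11.39 in Hif1a-/- cells, against 11.34 and 11.50 in WT cells, with groups that overlapped, a difference of -0.09 ± 0.13 (SE) and a limma p of 0.502. Probes outside the deleted part would still give signal, so this value hardly checks the genotype labels.

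The interferon-stimulated genes were high on WT replicate 1 and low on WT replicate 2, and the Hif1a-/- arrays mostly lay between. WT replicate 1 was the highest of the 4 arrays for 33 of 34 members, which is 97.1% of them, against 26.6% of all genes. Only Eif2ak2 broke this order. WT replicate 2 was the lowest array for 21 members (61.8%), against 37.7% of all genes. Both Hif1a-/- arrays fell between a low WT replicate 2 and a high WT replicate 1 for 21 members, again 61.8%, and for 14.8% of all genes. The median over members of WT replicate 1 minus WT replicate 2 was 0.747, and over all genes it was 0.032. Between the Hif1a-/- arrays the median member differed by 0.135, with a range from -0.636 to 0.718, and the median gene by -0.001. A second quantile normalization took the members' median to 0.061. The median SD of a member was 0.139 in the Hif1a-/- group and 0.529 in the WT group (n = 2 each), against 0.076 and 0.137 over all genes. Each gap sets 1 array against 1 other, so it has no test. In bulk samples such as these, fewer cells of a type and less RNA per cell cannot be told apart.

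**Figure D1:**
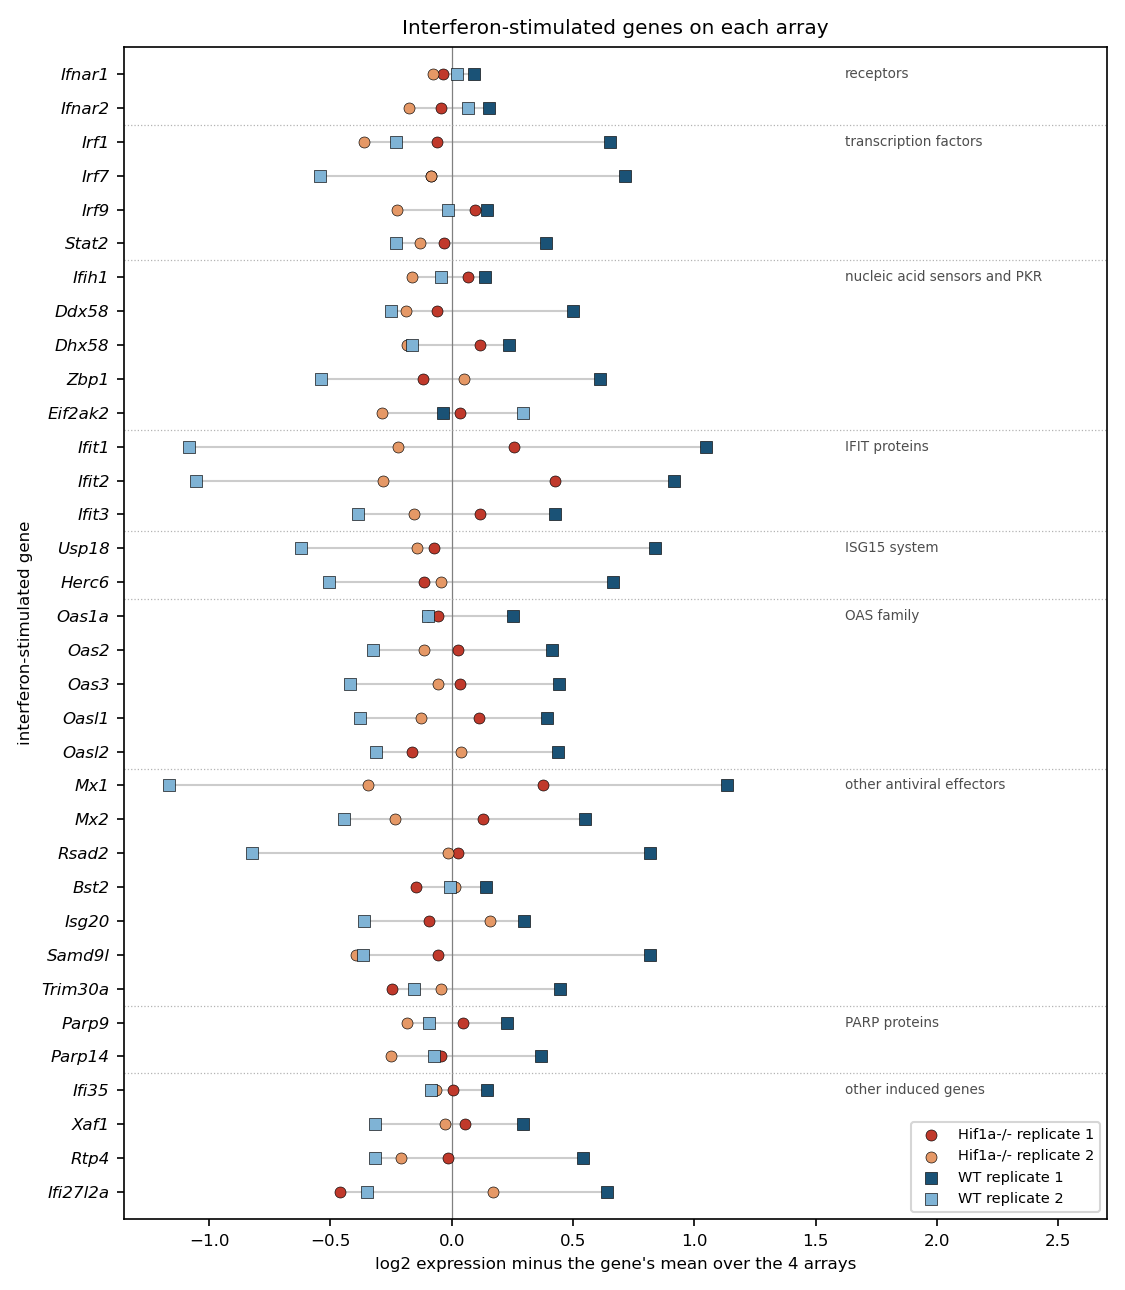
Log2 expression of each measured interferon-stimulated gene on each array, minus the gene's mean over the 4 arrays (x axis), for the 34 genes grouped by role (y axis); circles are Hif1a-/- arrays, squares are WT arrays, and a line joins the lowest and highest array. WT replicate 1 is the highest point in 33 rows, and both circles lie between the squares, with WT replicate 2 the lower square, in 21 rows.

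Among members, 0 differed by more than 2-fold between the Hif1a-/- arrays in either direction, as did 0.166% of all genes. WT replicate 1 exceeded WT replicate 2 by more than 2-fold for 9 members (26.5%), against 0.923% of all genes. The 9 were Mx1 (4.94-fold), Ifit1 (4.38-fold), Ifit2 (3.92-fold), Rsad2 (3.11-fold), Usp18 (2.75-fold), Irf7 (2.40-fold), Samd9l (2.28-fold), Herc6 (2.26-fold) and Zbp1 (2.22-fold). Mx2 (1.99-fold) and Ifi27l2a (1.98-fold) lay just under that limit. The gap between the WT arrays was larger than the gap between the Hif1a-/- arrays for 30 of 34 members (88.2%), against 68.9% of all genes.

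**Figure D2:**
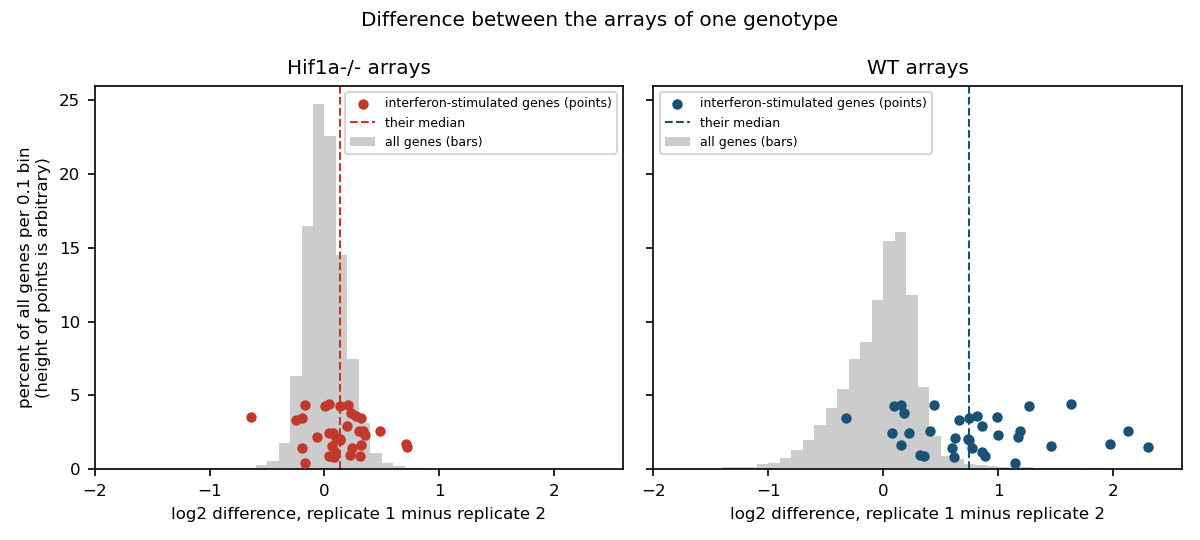
Log2 difference between replicate 1 and replicate 2 of the Hif1a-/- group (left) and the WT group (right): points are the 34 interferon-stimulated genes, at arbitrary heights, the dashed line is their median, and bars give the percentage of all 19938 genes in bins of 0.1. The members' median is 0.135 in the Hif1a-/- group and 0.747 in the WT group, and 9 members lie beyond 1 in the WT group.

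The promoters show what many of these genes share in sequence. RefSeq promoters (build GRCm38.p6), which run from 250 bases before to 50 bases after an annotated start, were given for 26 of the 36 genes. They were searched on both strands for the core of the interferon-stimulated response element, which is GAAA, then any 2 bases, then GAAA again; matches were allowed to overlap. The core was present in the promoters of 12 of 26 members (46.2%, 95% Clopper-Pearson interval 26.6 to 66.6), against 1079 of 27025 genes (3.99%). On the strand of the gene alone it was found for 23.1% of members and 2.06% of genes. Members were listed for their part in the interferon response, and some are related, such as Ifit1 and Ifit3. They are thus not independent draws, so the interval and the contrast with all genes describe this list and test nothing. A match is a run of letters and not a measured binding site. Whole promoters are shown, on the strand of the gene, for the 4 measured members with the core that had the largest gap between the WT arrays, and for Eif2ak2, the member that broke the array order (Eif2ak2 was added after its values were seen). Capitals mark the core, which appears as TTTC, 2 bases and TTTC where it lies on the other strand.
Ifit1, chr19:34640639-34640938, + strand: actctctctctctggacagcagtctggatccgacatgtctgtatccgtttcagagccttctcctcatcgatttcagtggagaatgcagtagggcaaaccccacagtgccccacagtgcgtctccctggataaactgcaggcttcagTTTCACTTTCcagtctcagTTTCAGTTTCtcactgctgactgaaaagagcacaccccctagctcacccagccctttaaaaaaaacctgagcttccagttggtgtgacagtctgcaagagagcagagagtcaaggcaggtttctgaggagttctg
Rsad2, chr12:26456403-26456702, - strand: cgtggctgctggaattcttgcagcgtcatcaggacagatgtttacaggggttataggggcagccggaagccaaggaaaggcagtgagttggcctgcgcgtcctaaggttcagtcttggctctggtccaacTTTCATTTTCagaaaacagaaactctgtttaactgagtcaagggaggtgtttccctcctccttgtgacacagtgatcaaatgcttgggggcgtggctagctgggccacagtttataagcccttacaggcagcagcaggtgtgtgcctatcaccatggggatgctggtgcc
Oas3, chr5:120777610-120777909, - strand: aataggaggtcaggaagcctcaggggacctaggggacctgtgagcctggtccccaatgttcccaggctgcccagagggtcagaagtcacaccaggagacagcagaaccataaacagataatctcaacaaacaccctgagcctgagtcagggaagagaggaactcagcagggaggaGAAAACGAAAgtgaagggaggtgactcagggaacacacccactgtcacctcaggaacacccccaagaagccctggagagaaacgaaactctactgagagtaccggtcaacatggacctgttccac
Ifit3, chr19:34583279-34583578, + strand: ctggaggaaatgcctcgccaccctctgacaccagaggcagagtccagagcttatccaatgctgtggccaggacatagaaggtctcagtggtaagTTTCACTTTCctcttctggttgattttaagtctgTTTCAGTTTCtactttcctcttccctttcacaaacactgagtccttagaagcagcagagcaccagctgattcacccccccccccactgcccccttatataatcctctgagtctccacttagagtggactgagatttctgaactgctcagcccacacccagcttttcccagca
Eif2ak2, chr17:78882523-78882822, - strand: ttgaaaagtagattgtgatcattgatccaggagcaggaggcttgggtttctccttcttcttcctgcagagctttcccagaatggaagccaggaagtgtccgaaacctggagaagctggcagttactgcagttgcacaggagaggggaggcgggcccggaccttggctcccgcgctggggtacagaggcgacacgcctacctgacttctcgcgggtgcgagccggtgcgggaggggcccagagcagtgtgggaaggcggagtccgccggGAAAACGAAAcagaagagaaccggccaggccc

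Counted from the start, the first base of the core lay 104 and 85 bases before it in Ifit1, 156 and 122 before it in Ifit3, 120 before it in Rsad2, 75 before it in Oas3 and 19 after it in Eif2ak2. Shorter windows are enough for 4 further members, to show how the GAAA units join into longer runs or stand alone; in the first 3, neighbouring matches overlap.
Isg15, within chr4:156200769-156201068, - strand: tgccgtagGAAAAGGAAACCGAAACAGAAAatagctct
Oas1a, within chr5:120907476-120907775, - strand: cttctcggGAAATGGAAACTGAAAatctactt
Bst2, within chr8:71537423-71537722, - strand: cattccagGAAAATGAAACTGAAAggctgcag
Stat2, within chr10:128270248-128270547, + strand: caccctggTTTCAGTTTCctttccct

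Isg15 held 3 overlapping matches, from 78 bases before the start, and Oas1a and Bst2 held 2 each. The other holders were Ifih1, Ddx58 and Trim30a. Members with and without the core both spanned a wide range of gaps between the WT arrays. The median gap was 0.625 for the 11 measured members with the core, with a range from -0.322 to 2.129, and 0.750 for the 13 measured members whose promoter was searched without a match, with a range from 0.076 to 1.972. Ifit2, Irf7, Samd9l and Herc6 were among those 13, and no match says only that these letters were not in this window.

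**Figure D3:**
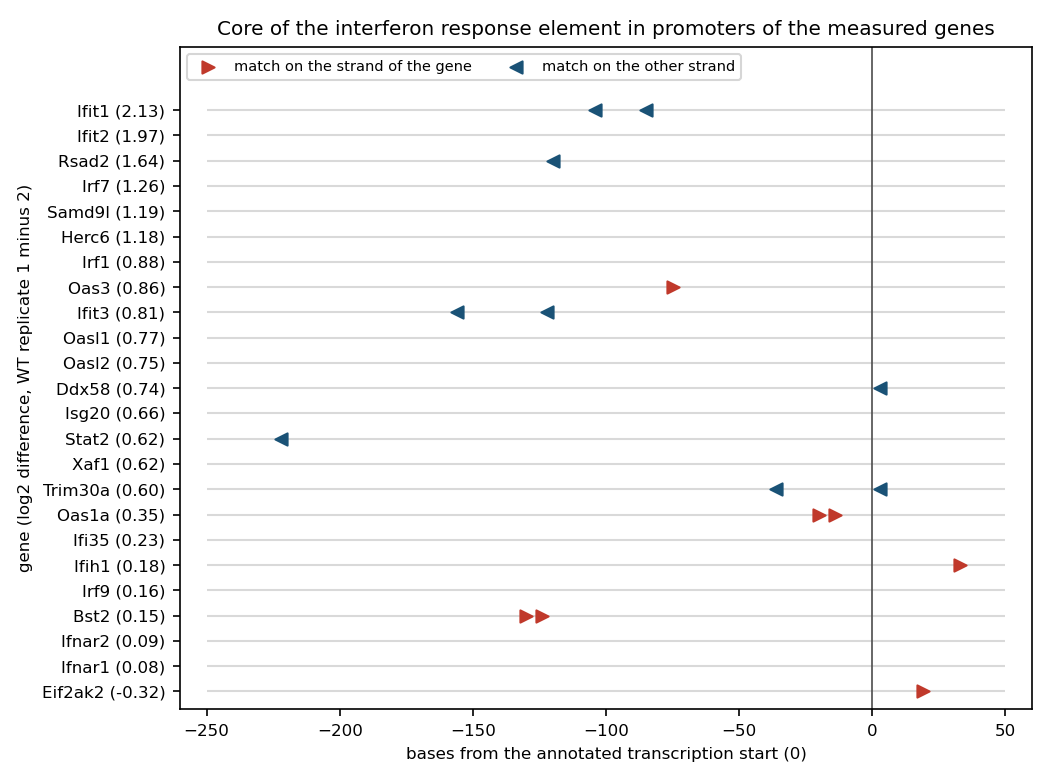
Position of each match to the core (GAAA, any 2 bases, GAAA), by its first base relative to the annotated start (x axis, in bases), in the promoters of the 24 measured genes with a RefSeq promoter, ordered by the log2 gap of WT replicate 1 over WT replicate 2 given in parentheses (y axis); right-pointing triangles are matches on the strand of the gene and left-pointing triangles on the other strand. Matches occur in 11 genes, from the largest gap (Ifit1) to the smallest (Eif2ak2).

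Both chains of the receptor read lower in Hif1a-/- cells, with little spread. Ifnar1, the low-affinity chain, read 10.04 and 10.00 in Hif1a-/- cells, against 10.17 and 10.10 in WT cells. Ifnar2, the chain that binds interferon tightly, read 11.28 and 11.15 in Hif1a-/- cells, against 11.48 and 11.39 in WT cells. For both genes the groups did not overlap, and they were the only 2 such members in the lower direction (5.88%), where 9.05% of all genes had groups of this kind. In the higher direction there were 0 members and 15.7% of all genes. Among genes at or above the median of mean expression, which include 33 of the members, these shares were 11.7% lower and 8.41% higher. The differences were -0.12 ± 0.12 for Ifnar1 (SE; limma p 0.372, 95% interval -0.408 to 0.176) and -0.22 ± 0.13 for Ifnar2 (limma p 0.129, 95% interval -0.527 to 0.085), and neither passed the test. Where groups do not overlap, leaving out 1 array cannot turn the sign, so only the size could change. It then lay between -0.078 and -0.15 for Ifnar1 and between -0.15 and -0.29 for Ifnar2. The WT arrays differed by only 0.076 and 0.09 here, less than for any other member.

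The transcription factors of the response split by that order. Irf7, the factor that amplifies interferon alpha genes and is itself strongly induced, read 10.56 on both Hif1a-/- arrays, against 11.36 and 10.10 in WT cells. Stat2, a subunit of ISGF3, read 10.20 and 10.10 in Hif1a-/- cells, against 10.62 and 10.00 in WT cells. Irf1, which is induced by both interferon types, read 10.21 and 9.91 in Hif1a-/- cells, against 10.92 and 10.04 in WT cells. For Irf7 and Stat2 the Hif1a-/- arrays lay inside the WT range, and for Irf1 replicate 2 of the Hif1a-/- group was the lowest array. Irf9, the DNA-binding subunit of ISGF3, was close on all arrays, at 10.16 and 9.84 in Hif1a-/- cells and 10.21 and 10.05 in WT cells. The differences between genotypes were -0.42 ± 0.29 for Irf1 (SE; limma p 0.184), -0.17 ± 0.37 for Irf7 (p 0.659), -0.16 ± 0.21 for Stat2 (p 0.468) and -0.13 ± 0.15 for Irf9 (p 0.428). A dimmer probe set of Irf1 differed by only 0.05, in the other direction.

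Among the sensors of viral nucleic acids, Zbp1, which detects nucleic acid in the Z form and can start necroptosis, showed the widest gap. It read 10.78 and 10.95 in Hif1a-/- cells, against 11.51 and 10.36 in WT cells. Ddx58 (RIG-I), a sensor of viral RNA ends, read 10.85 and 10.72 in Hif1a-/- cells, against 11.41 and 10.66 in WT cells. Both genes had their highest and lowest array in the WT group. The related helicases moved less between arrays: Ifih1 (MDA5) read 9.93 and 9.70 in Hif1a-/- cells, against 10.00 and 9.82 in WT cells, and Dhx58 (LGP2) read 9.75 and 9.45 in Hif1a-/- cells, against 9.87 and 9.47 in WT cells. Eif2ak2 (PKR), the kinase that halts translation upon binding viral RNA, read 9.59 and 9.27 in Hif1a-/- cells, against 9.52 and 9.85 in WT cells. It was the member in which WT replicate 2 was the higher WT array. The differences between genotypes ran from -0.25 ± 0.17 for Eif2ak2 (SE; limma p 0.190) to -0.07 ± 0.18 for Dhx58 (p 0.718), and without WT replicate 1 those of Ddx58, Dhx58 and Zbp1 became 0.12, 0.13 and 0.50.

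The IFIT proteins, which bind viral RNA and block its translation, had some of the largest gaps of all. Ifit1 read 10.82 and 10.34 in Hif1a-/- cells, against 11.61 and 9.48 in WT cells. Ifit2 read 10.59 and 9.88 in Hif1a-/- cells, against 11.08 and 9.11 in WT cells. Ifit3 read 9.28 and 9.01 in Hif1a-/- cells, against 9.59 and 8.78 in WT cells. In all 3 genes WT replicate 1 was the highest array, WT replicate 2 the lowest, and Hif1a-/- replicate 1 above Hif1a-/- replicate 2. Differences between genotypes were 0.03 ± 0.62 for Ifit1 (SE; limma p 0.961), 0.14 ± 0.60 for Ifit2 (p 0.816) and -0.04 ± 0.27 for Ifit3 (p 0.892). The interval of Ifit1 ran from -1.458 to 1.521, so a 2-fold difference in either direction was not detectable with these arrays. Ifit3 has a near-identical neighbour, and whether its probes also read that copy was not tested.

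Usp18 and Herc6 work on ISG15, a small ubiquitin-like protein that is attached to other proteins during the response. Usp18, which removes ISG15 and also shuts off signalling at Ifnar2, read 11.05 and 10.98 in Hif1a-/- cells, against 11.96 and 10.50 in WT cells. Herc6, the main ligase for ISG15 in mice, read 10.10 and 10.17 in Hif1a-/- cells, against 10.88 and 9.71 in WT cells. The Hif1a-/- arrays lay within 0.07 of each other for both genes and inside the WT range. The differences between genotypes were -0.22 ± 0.42 (SE; limma p 0.629) and -0.16 ± 0.35 (p 0.657). The probe set shared by Isg15 and Gm9706, which was not counted as a member, read 8.28 and 8.76 in Hif1a-/- cells, against 9.26 and 8.10 in WT cells, so its WT arrays also stood on either side of the Hif1a-/- arrays.

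All 5 OAS family genes among the members had both Hif1a-/- arrays inside the WT range, Oas1a only just. These enzymes make short adenylate chains upon binding viral RNA and so switch on RNase L, or are relatives that lack this activity. Oas3 read 10.15 and 10.06 in Hif1a-/- cells, against 10.56 and 9.70 in WT cells. Oas2 read 9.58 and 9.44 in Hif1a-/- cells, against 9.97 and 9.23 in WT cells. Oasl1, which in mice represses translation of Irf7, read 10.24 and 10.00 in Hif1a-/- cells, against 10.52 and 9.75 in WT cells. Oasl2 was the member of the family in which Hif1a-/- replicate 2 was the higher Hif1a-/- array, at 10.66 and 10.86 in Hif1a-/- cells against 11.26 and 10.51 in WT cells. Of these 5, Oas1a had the smallest gap, with 9.29 and 9.25 in Hif1a-/- cells against 9.60 and 9.245 in WT cells. The differences between genotypes ran from -0.15 ± 0.16 for Oas1a (SE; limma p 0.360) to -0.02 ± 0.25 for Oasl1 (p 0.938), and the largest SE of the 5 was 0.269. Without WT replicate 1 all 5 differences were positive, from 0.025 for Oas1a to 0.41 for Oas3. Another probe set, shared by Oas1a and Oas1g, read 9.70 and 9.78 in Hif1a-/- cells, against 9.96 and 9.73 in WT cells. Oas1b and Oas1c, outside the members and named after their values were seen, did not have both Hif1a-/- arrays inside the WT range. Oas1b read 8.19 and 7.98 in Hif1a-/- cells, against 8.57 and 8.11 in WT cells. Oas1c read 7.62 and 7.55 in Hif1a-/- cells, against 7.74 and 7.75 in WT cells.

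The other antiviral effectors ranged from the largest gap of any member, in Mx1, to a small gap in Bst2. Mx1, a dynamin-like GTPase against influenza viruses whose gene is defective in most laboratory strains, read 10.02 and 9.30 in Hif1a-/- cells, against 10.78 and 8.48 in WT cells. Its WT arrays differed by 2.31 and its Hif1a-/- arrays by 0.72, and the difference between genotypes was 0.03 ± 0.68 (SE; limma p 0.971). Mx2, its relative, read 7.63 and 7.27 in Hif1a-/- cells, against 8.05 and 7.06 in WT cells. Rsad2 (viperin), which makes a nucleotide that stops viral polymerases, read 10.98 and 10.94 in Hif1a-/- cells, against 11.77 and 10.13 in WT cells. Its Hif1a-/- arrays lay close to the middle of the WT range, and the difference was 0.01 ± 0.47 (limma p 0.984). Its promoter, shown above, holds the core once, and that of Ifit2, with a gap of 1.97, holds no match.

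Samd9l, a growth-restraining factor that inhibits translation, had the largest difference between genotypes of any member, -0.45 ± 0.36 (SE; limma p 0.261), and it too rested on the WT arrays. It read 9.39 and 9.05 in Hif1a-/- cells, against 10.26 and 9.08 in WT cells, and the difference was 0.15 without WT replicate 1. Trim30a, a mouse brake on Toll-like receptor signalling, read 10.85 and 11.05 in Hif1a-/- cells, against 11.54 and 10.94 in WT cells. Isg20, an exonuclease of RNA, read 11.77 and 12.02 in Hif1a-/- cells, against 12.16 and 11.50 in WT cells. Bst2 (tetherin), which holds budding virus at the cell surface and is also a marker of plasmacytoid dendritic cells, read 10.44 and 10.60 in Hif1a-/- cells, against 10.73 and 10.58 in WT cells. Bst2 was thus nearly level, with a difference of -0.14 ± 0.14 (SE, limma p 0.345). Its promoter holds overlapping cores, and any part of the core in these values was not tested.

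The PARP proteins modify other proteins with ADP-ribose, and neither of the members Parp9 and Parp14 had both Hif1a-/- arrays inside the WT range. Outside the members, Parp10 and Parp12 did and Parp11 did not, each named after its values were seen. Parp9, the partner of the ubiquitin ligase Dtx3l, read 9.94 and 9.71 in Hif1a-/- cells, against 10.12 and 9.80 in WT cells. Parp14, which also acts in signalling by interleukin-4, read 9.49 and 9.28 in Hif1a-/- cells, against 9.90 and 9.46 in WT cells. The differences between genotypes were -0.13 ± 0.16 for Parp9 (SE; limma p 0.448) and -0.29 ± 0.18 for Parp14 (p 0.150). That of Parp14 kept its sign without any 1 array, between -0.075 and -0.51, and that of Parp9 was 0.030 without WT replicate 1.

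The 4 remaining measured genes are induced by interferon and have varied or less clear roles. Rtp4, a chaperone of receptors that also curbs the interferon response in mice, read 9.61 and 9.42 in Hif1a-/- cells, against 10.17 and 9.31 in WT cells. Xaf1, a binding partner of the apoptosis inhibitor XIAP, read 8.86 and 8.78 in Hif1a-/- cells, against 9.10 and 8.49 in WT cells. Both, like Ifi35, had the Hif1a-/- arrays inside the WT range. Ifi35, a partner of Nmi, read 10.14 and 10.07 in Hif1a-/- cells, against 10.28 and 10.05 in WT cells. Ifi27l2a had the widest gap between Hif1a-/- arrays toward replicate 2, with 8.66 and 9.29 in Hif1a-/- cells against 9.76 and 8.77 in WT cells. The differences between genotypes were -0.29 ± 0.35 for Ifi27l2a (SE; limma p 0.434), -0.22 ± 0.27 for Rtp4 (p 0.446), -0.06 ± 0.14 for Ifi35 (p 0.659) and 0.02 ± 0.21 for Xaf1 (p 0.911).

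The study asked which genes differ between leukemia stem cells without and with Hif1a, and for these members the comparison of genotypes gave no call. At an adjusted p under 0.05 in limma, with Benjamini-Hochberg adjustment over all 19938 genes, 0 members were called and 0% of all genes, and the adjusted p was 0.999 for each member. At an unadjusted limma p under 0.05 there were 0 members in either direction, against 0.978% of all genes lower and 0.697% of all genes higher in Hif1a-/- cells. The mean was lower in Hif1a-/- cells for 28 members and higher for 6, where 38.6% of all genes had the lower mean. The median difference of members was -0.126, with a range from -0.448 to 0.145, and that of all genes was 0.034. With arrays centred to equal medians the median of all genes was 0.008, and 30 members were then lower and 4 higher. The same centring turned the split of all genes whose groups did not overlap to 12.3% lower and 11.5% higher, and a second quantile normalization turned it to 13.0% lower and 14.0% higher. The median SE of a member was 0.244, larger than the median difference, and that of all genes was 0.138. For 32 of 34 members (94.1%) the gap between the WT arrays exceeded the difference between genotypes, as it did for 75.5% of all genes. With 2 arrays in each group, the smallest two-sided p that exact permutation allows is 0.333, so a member's test rests on the variance that limma pools over genes.

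The direction depended on which WT array was kept. Without WT replicate 1, limma called 4 members higher in Hif1a-/- cells (11.8%), against 0.502% of all genes, and 0 members lower, against 1.25% of all genes. These were Ifit1 (1.096), Ifit2 (1.13), Mx1 (1.18) and Rsad2 (0.83). Without WT replicate 2, limma called 20 members lower in Hif1a-/- cells (58.8%), against 3.03% of all genes, and 0 members higher, against 4.2% of all genes. Examples of those called lower were Samd9l (-1.04), Usp18 (-0.95), Irf1 (-0.87) and Irf7 (-0.80). These fits have 1 residual degree of freedom, and the lone WT array is assumed to vary like the Hif1a-/- arrays. For the members this was not so: their median SD was 0.139 in the Hif1a-/- group and 0.529 in the WT group. The calls therefore cannot separate genotype from the gap between the WT arrays, and they are not results about genotype. The mean of the Hif1a-/- arrays was below WT replicate 1 for all 34 members, against 43.8% of all genes, and above WT replicate 2 for 27 members (79.4%), against 55.8% of all genes. Leaving out some array turned the sign for 29 members, and Ifnar1, Ifnar2, Eif2ak2, Bst2 and Parp14 were the 5 that kept it. For Ifnar1 and Ifnar2 this follows from groups that did not overlap.

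**Figure D4:**
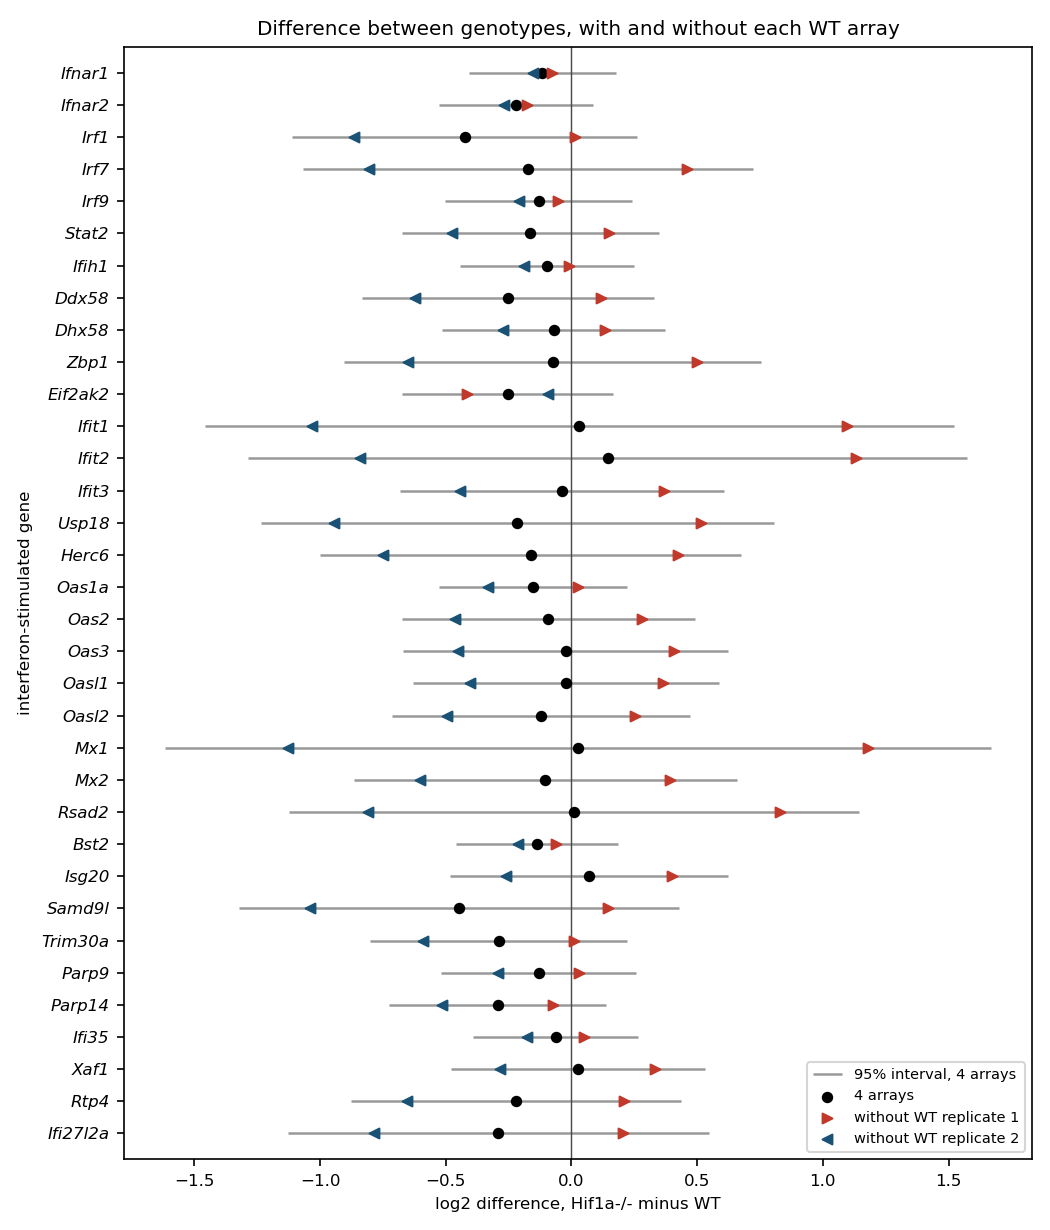
Log2 difference between genotypes, Hif1a-/- minus WT (x axis), for each interferon-stimulated gene (y axis): black points use all 4 arrays, grey lines are the 95% intervals of limma, red triangles leave out WT replicate 1 and blue triangles leave out WT replicate 2. Every grey line crosses 0, the red triangle lies right of 0 for 27 genes, and the blue triangle lies left of 0 for all 34.

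Other genes of the pathway were read from lists, and in each list 0 genes passed the adjusted limma test. Counts of lower and higher means in these lists stand beside 38.6% of all genes with the lower mean in Hif1a-/- cells. Of 14 interferon genes measured among 18 listed, 8 had the higher and 6 the lower mean in Hif1a-/- cells. Ifnb1, the gene of interferon beta, read 7.20 and 7.31 in Hif1a-/- cells, against 6.91 and 6.80 in WT cells, with groups that did not overlap and a difference of 0.40 ± 0.13 (SE; limma p 0.0177, adjusted p 0.999). Ifnab differed by 0.33 (p 0.0862) and Ifna11 by 0.23 (p 0.106), each without overlap, and Ifna12, named after its values were seen, by -0.26 (p 0.113), lower in Hif1a-/- cells without overlap. Ifnb1, Ifna11 and Ifna12 lay below 7.48, the 25th percentile of all values, where RMA compresses differences. Ifng, the gene of interferon gamma, read 7.98 and 7.91 in Hif1a-/- cells, against 7.90 and 7.66 in WT cells, a difference of 0.17. For 3 of the 14 WT replicate 1 was the highest array, and their median gap between the WT arrays was 0.131.

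Receptors and JAK-STAT genes beyond the members were read for 8 genes, 7 with the lower and 1 with the higher mean in Hif1a-/- cells. Stat3 read 11.05 and 11.00 in Hif1a-/- cells, against 11.27 and 11.15 in WT cells, a difference of -0.19 ± 0.13 (SE; limma p 0.182). The difference was -0.10 for Jak1, -0.07 for Tyk2, -0.19 for Ifngr2 and 0.02 for Ifngr1, with limma p of 0.447, 0.585, 0.288 and 0.861. Of 6 measured brakes on the pathway, all had the lower mean, against 38.6% of all genes, and 0 had an unadjusted limma p under 0.05. Ptpn2, a phosphatase of JAK and STAT proteins, differed by -0.25 (limma p 0.083), Pias1, an inhibitor of STAT signalling, by -0.18 (p 0.186) and Ptpn6, the phosphatase SHP-1, by -0.10 (p 0.524). For 3 of the 6 brakes, Ptpn6 and Socs1 among them, both Hif1a-/- arrays lay inside the WT range in the members' order. Socs1, an induced inhibitor of JAK kinases, read 11.22 and 10.91 in Hif1a-/- cells, against 11.68 and 10.76 in WT cells.

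Among the other IRF factors, 2 of the 5 measured had an unadjusted limma p under 0.05, and both were lower in Hif1a-/- cells, where 0.978% of all genes were lower and 0.697% higher at that threshold. Irf8, which directs monocyte and dendritic cell fate, read 9.49 and 9.29 in Hif1a-/- cells, against 9.90 and 10.07 in WT cells, a difference of -0.59 ± 0.14 (SE; limma p 0.0046, adjusted p 0.999). Irf5, which acts downstream of Toll-like receptors, read 9.43 and 9.54 in Hif1a-/- cells, against 10.15 and 9.84 in WT cells, a difference of -0.51 ± 0.15 (p 0.0131, adjusted p 0.999). Irf2, a repressor and relative of Irf1, differed by -0.13 (p 0.346). Of the 12 genes of sensing pathways upstream of interferon, 9 had the lower and 3 the higher mean. Tlr3, an endosomal receptor for viral RNA, read 8.04 and 7.81 in Hif1a-/- cells, against 8.57 and 8.62 in WT cells, a difference of -0.67 ± 0.14 (p 0.00211, adjusted p 0.999). Tlr7 differed by -0.52 (p 0.081) with groups that overlapped, and Tbk1, the kinase that activates Irf3, by -0.19 (p 0.298). Of 9 markers of conventional dendritic cells, some of which express Irf8 and Tlr3 highly, 6 had the lower and 3 the higher mean in Hif1a-/- cells. At an unadjusted limma p under 0.05, 5 of the 9 were lower and 0 higher, against 0.978% and 0.697% of all genes. The 3 with the higher mean, named after their values were seen, were Zbtb46 (0.23, without overlap), Cd209a (0.12) and Batf3 (0.04). The summed linear signal of the 9, most of it from H2-Ab1 and Cd74, was 8827 and 9389 in Hif1a-/- cells, against 13539 and 13650 in WT cells. The part of these cells in the values of Irf8 and Tlr3 was not tested.

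Further interferon-stimulated genes outside the member list were measured for 36 of 41 listed, 31 with the lower and 5 with the higher mean in Hif1a-/- cells. WT replicate 1 was the highest array for 26 of the 36, both Hif1a-/- arrays lay inside the WT range in the members' order for 12, and the median gap between the WT arrays was 0.296. Cmpk2, Ddx60 and Ube2l6 exceeded 2-fold between the WT arrays. Cmpk2, the neighbour of Rsad2 on the chromosome, read 10.97 and 10.74 in Hif1a-/- cells, against 11.72 and 10.19 in WT cells, and Ube2l6, the E2 enzyme for ISG15, read 10.41 and 10.43 in Hif1a-/- cells, against 11.03 and 9.86 in WT cells. Cxcl10, a chemokine that draws T cells, read 10.94 and 9.96 in Hif1a-/- cells, against 9.90 and 9.39 in WT cells, a difference of 0.81 ± 0.33 (SE; limma p 0.0468, adjusted p 0.999) with groups that did not overlap. Dtx3l, the partner of Parp9, differed by -0.30 (p 0.0877) and Mov10, an RNA helicase, by -0.23 (p 0.108), both without overlap. Of the GTPases induced mainly by interferon gamma, 8 of 16 were measured, and WT replicate 1 was the highest array for all 8. Iigp1 read 9.50 and 9.06 in Hif1a-/- cells, against 10.29 and 7.89 in WT cells, and Gbp4 read 9.42 and 8.73 in Hif1a-/- cells, against 9.67 and 8.08 in WT cells. The smallest p of that list belonged to Gbp3 (-0.22, p 0.202), Gbp8 (0.22, p 0.350) and Irgm1 (-0.19, p 0.392). Cmpk2, Ddx60, Ube2l6, Iigp1 and Gbp4 were named after their values were seen.

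**Figure D5:**
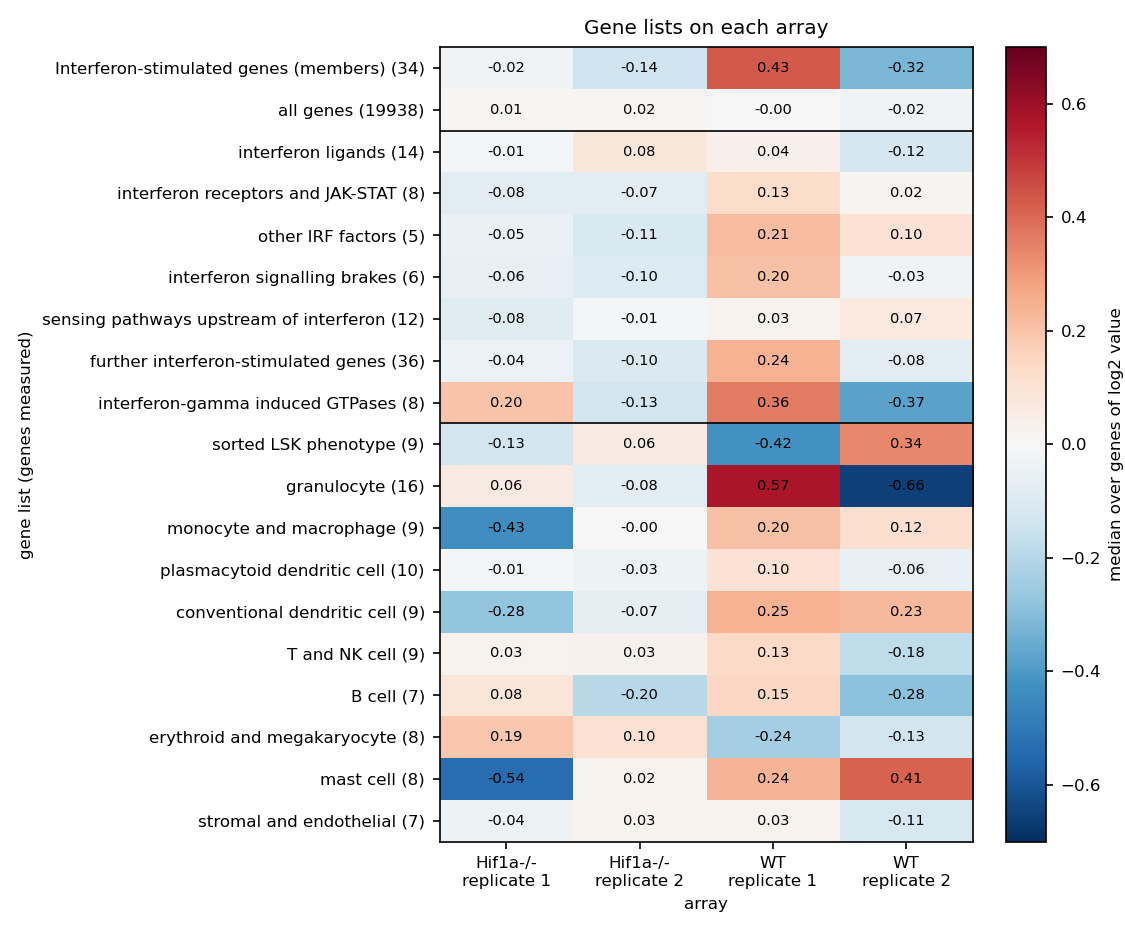
Median over the genes of a list of the log2 value minus the gene's mean over the 4 arrays, for each list (rows, genes measured in parentheses) on each array (columns); red is above and blue below the mean. The members read -0.02 and -0.14 on the Hif1a-/- arrays and 0.43 and -0.32 on the WT arrays. The granulocyte, B cell, interferon-gamma GTPase and plasmacytoid dendritic cell lists run in the same order, the last only from 0.10 to -0.06. The list of the sorted phenotype runs in the reverse. Further interferon-stimulated genes are highest on WT replicate 1 (0.24) but lowest on Hif1a-/- replicate 2 (-0.10).

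Markers of cell types were set beside the members, since the arrays read a sorted bulk population. Markers of the granulocyte lineage moved with the array order of the members. Of 16 such genes, 12 had both Hif1a-/- arrays between a low WT replicate 2 and a high WT replicate 1, 9 exceeded 2-fold between the WT arrays, and the median gap was 1.228. Their summed linear signal was 107251 and 99822 in Hif1a-/- cells, against 132995 and 82858 in WT cells. Ly6g, a surface protein of mature neutrophils, read 11.74 and 11.64 in Hif1a-/- cells, against 13.10 and 10.64 in WT cells, although the sort was for lineage-negative cells, and Mmp8, a collagenase of late granules, read 10.26 and 10.72 in Hif1a-/- cells, against 12.09 and 9.53 in WT cells. The other 4 granulocyte markers (Elane, Mpo, Prtn3 and Ctsg), proteins of early granules that were named after their values were seen, had WT replicate 2 above WT replicate 1.

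Genes listed for the sorted phenotype, of which the sort itself used only Kit among those measured, ran the other way. Their median gap between the WT arrays was -0.757 over 9 measured genes, and 7 of the 9 were higher on WT replicate 2. Kit, which encodes c-Kit, read 10.95 and 10.61 in Hif1a-/- cells, against 10.32 and 11.07 in WT cells, and Cd34 read 10.70 and 11.70 in Hif1a-/- cells, against 10.31 and 12.29 in WT cells. The summed linear signal of the 9 was 16702 and 18180 in Hif1a-/- cells, against 16080 and 21602 in WT cells. Ly6a had no probe set annotated with its symbol alone and was not analysed here. Plasmacytoid dendritic cells are known as strong producers of interferon, and their 10 measured markers had a median gap of 0.097. These summed to 4878 and 4792 in Hif1a-/- cells, against 5266 and 5479 in WT cells. They include Bst2, itself a member, and Irf8, given above, so this list is not independent of the members. The 9 measured monocyte and macrophage markers summed to 12239 and 12960 in Hif1a-/- cells, against 20263 and 11167 in WT cells, with a median gap of 0.089. The brightest gene weighs most in such a sum. Here it was Lyz2, named after its values were seen, at 12.66 and 12.27 in Hif1a-/- cells against 13.39 and 11.50 in WT cells. Of the 9, 3 were higher on WT replicate 2. The 7 measured B cell markers summed to 3304 and 2450 in Hif1a-/- cells, against 5252 and 2560 in WT cells, with a median gap of 0.430. T and NK cell markers had a median gap of 0.261, and those of conventional dendritic cells, the erythroid and megakaryocyte lineage, mast cells and stroma lay between -0.025 and 0.165. RMA gives no zero, so no marker can be called absent. The part of these cell types in the array order of the interferon-stimulated genes was not tested.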

How the data were processed

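The log2 values deposited by the authors cover 35556 probe sets on 4 arrays. They were made with RMA in Affymetrix Expression Console 1.1, per the submitters' processing notes. Differences of dim genes are compressed by RMA, and a change of total RNA in each cell is scaled out. Groups follow the genotype in the sample titles. Through the platform annotation, 21789 probe sets carried 1 symbol, 1621 several, and 12146 were unnamed here. Keeping the set with 1 symbol and the highest mean left 19938 genes, 19856 of them found in RefSeq GRCm38.p6.

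From these values, limma 3.58.1 (lmFit, eBayes; R 4.3.3) was fitted to all genes with a term for genotype alone. P-values were adjusted by Benjamini-Hochberg over all genes, with calls at 0.05. Residual degrees of freedom were 2 and prior ones 4.46. The procedure was tested on simulated data. Precision is limited by the number of arrays. Beside the members, the text names up to 3 genes of each pathway list by the smallest p, some fixed pathway genes and up to 2 genes of a marker list. Any other gene is marked in the text as chosen after seeing its values. The members and lists were chosen with earlier results of these data known, so no p is given for a list.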

Additional observations from a re-analysis of the deposited data

How the results depend on the processing

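Limma called 0 members after filtering on mean expression (25th percentile, or the median, which dropped Mx2), after centring array medians or repeating the quantile normalization, with low values floored, with a variance trend (plain or robust), with other choices of probe sets, at an adjusted p under 0.1 and with the replicate block. Over all genes it called 0 as reported (334 at an unadjusted p under 0.05), 1 with the variance trend, 2 with robust fitting and 47 with the replicate block, which called no member. The labels do not say whether the replicate numbers pair the samples. Over all genes the replicate gaps of the 2 genotypes correlated at -0.007, which cannot settle this. Among members, Hif1a-/- replicate 1 was the higher Hif1a-/- array for 27 of 34, against 9892 of 19938 genes. WT replicate 1 was the higher WT array for 33 members, against 10876 of all genes. The block result says nothing about a stronger or weaker effect. Leaving out each array in turn, the calls ranged from 2 to 1442 over all genes and from 0 to 20 over members, members without overlap from 3 to 33 lower and from 0 to 21 higher, and the median difference of members from -0.487 to 0.206, which is its turned value without WT replicate 1. Calls made with 1 WT array carry the limit given above and are not results about genotype. With 1 array fewer, groups overlap less often in any gene. Over all genes, 32.3% were lower and 43.0% higher without overlap when WT replicate 1 was left out. The shares were 30.7% and 42.5% without WT replicate 2. They were 19.5% and 31.4% without Hif1a-/- replicate 1, and 19.7% and 30.4% without Hif1a-/- replicate 2. Other settings gave a median difference of members from -0.119 to -0.152. Their median gap ran from 0.739 to 0.863 between the WT arrays and from 0.061 to 0.159 between the Hif1a-/- arrays. The promoter core read on the strand of the gene alone was present for 23.1% of members. The difference became -0.026 for Mx1 and -0.033 for Xaf1 with the second quantile normalization, and -0.016 for Rsad2 and -0.0015 for Xaf1 with centred medians. For the 29 members whose sign turned without some array, the differences without 1 array ranged as follows: Irf1 -0.87 to 0.016, Irf7 -0.80 to 0.46, Irf9 -0.29 to 0.028, Stat2 -0.48 to 0.15, Ifih1 -0.21 to 0.016, Ddx58 -0.62 to 0.12, Dhx58 -0.27 to 0.13, Zbp1 -0.65 to 0.50, Ifit1 -1.03 to 1.096, Ifit2 -0.84 to 1.13. In the same way they ranged for Ifit3 -0.44 to 0.37, Usp18 -0.95 to 0.52, Herc6 -0.75 to 0.43, Oas1a -0.33 to 0.025, Oas2 -0.46 to 0.28, Oas3 -0.45 to 0.41, Oasl1 -0.40 to 0.36, Oasl2 -0.50 to 0.25, Mx1 -1.13 to 1.18, Mx2 -0.60 to 0.39. They ranged likewise for Rsad2 -0.81 to 0.83, Isg20 -0.26 to 0.40, Samd9l -1.04 to 0.15, Trim30a -0.59 to 0.010, Parp9 -0.29 to 0.030, Ifi35 -0.18 to 0.050, Xaf1 -0.28 to 0.33, Rtp4 -0.65 to 0.21, Ifi27l2a -0.78 to 0.20. The cause of these turns was not tested.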
